A study of Mus musculus with 18 samples.

Results

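The interferon regulatory factor (IRF) genes encode transcription factors that share a DNA-binding domain and control interferons, interferon-stimulated genes and lymphocyte differentiation. The 8 genes described here, Irf1, Irf2, Irf3, Irf4, Irf5, Irf7, Irf8 and Irf9, were found by their Entrez gene identifiers among the 27179 genes of the count tables. All 8 passed the filter on low values that left 12798 genes to test, at least 0.5 CPM (counts scaled to the size of the library) in at least 3 samples. The rule used gene identifiers and no measured value, but the members were chosen with earlier results of these data known.

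RNA-seq was performed on CD69+ thymocytes, T-cell precursors that had received a T-cell receptor (TCR) signal, sorted into an MHC class I low fraction (earlier) and an MHC class I high fraction (later) from 9 mice. WT mice carried neither mutation. Hoil ΔCd4 mice had lost floxed Rbck1, which encodes HOIL-1, through a Cd4-driven Cre that acts in the T-cell lineage. Sharpin cpdm mice lacked SHARPIN in every cell, so their thymic environment was mutant as well. Their mutation came from the C57BL/Ka strain and had been crossed to C57BL/6 for few generations. The study describes their background as mostly C57BL/Ka, whereas WT and Hoil ΔCd4 mice were of C57BL/6 background. Strain and genotype therefore cannot be told apart in comparisons with Sharpin cpdm mice. The ages of the mice are not given in the sources used here. HOIL-1 and SHARPIN are components of the linear ubiquitin chain assembly complex (LUBAC), which is involved in NF-κB activation, and the comparison asked which transcripts of positively selected thymocytes depend on them. There were 3 mice of each genotype and both fractions came from each mouse, which gave 18 samples in 6 groups. The sort excluded dead cells, activated or regulatory T cells (CD25, CD44), natural killer cells (NK1.1), B cells (B220), cells bearing MHC II, myeloid cells (Mac-1, Gr1) and γδ T cells.

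Libraries held 10577966 to 16266128 counts in genes, with a median of 13979793. Rbck1, the targeted gene, fell from 222 ± 6.08 CPM (mean ± SD, n = 3 here and below) in WT MHC I low samples to 0.544 ± 0.256 in Hoil ΔCd4, and from 266 ± 2.28 to 5.72 ± 2.81 in MHC I high samples. The MHC I high sample of Hoil mouse 2 kept the most, 8.94 CPM, and was the sample that held Xist (64.6 CPM) together with Y-chromosome transcripts. Calls of members and list genes that ended without it are given with and without it. The 3 WT mice, Hoil mouse 3 and Sharpin mouse 2 expressed Xist as females do, whereas the other mutant mice did not, so sex was not balanced between genotypes. The cpdm mutation left a transcript, since Sharpin was at 71.5 CPM in the MHC I low fraction of these mice against 91.3 in WT. The sorted cells carried the label's markers: in WT mice, H2-K1 was at 216 ± 5.87 CPM in the low fraction and 2003 ± 27.0 CPM in the high one.

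As background, IRF3 and IRF7 are activated by kinases downstream of nucleic acid sensors and switch on type I interferon genes. Interferon receptors in turn activate STAT proteins. IRF9 is the DNA-binding IRF subunit of the ISGF3 complex, which acts on interferon-stimulated response elements (ISRE), while gamma-activated sites (GAS) are bound by STAT dimers. IRF1 activates genes of MHC class I antigen presentation, IRF2 can compete with it for the same sites, and IRF4, induced by TCR signals, and IRF8 act with partner proteins in lymphocytes.

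In the same build as the promoters below (GRCm38.p6, also called mm10), the genes lie at chr11:53770014-53778374 (Irf1), chr8:46739745-46847458 (Irf2), chr7:44997648-45002848 (Irf3), chr13:30749233-30766981 (Irf4), chr6:29526130-29541869 (Irf5), chr7:141263183-141266499 (Irf7), chr8:120736358-120756694 (Irf8) and chr14:55603985-55610030 (Irf9). Promoters of the members were read because NF-κB, STAT dimers and ISGF3 act upstream of several of them. The 250 bases before each RefSeq start were searched on both strands for the ISRE core (GAAA, any 2 bases, GAAA), the GAS letters TTCNNNGAA and the κB consensus. Of 32851 such windows over 27025 genes, 2.98% held the ISRE core, 7.02% the GAS letters and 3.9% the κB consensus. Printed below are the windows of Irf1, which held both a GAS match 90 to 82 bases and a κB match 13 to 4 bases before the start, and of Irf8, which held GAS matches 171 to 163 and 153 to 145 bases before it. Irf7 is printed for comparison, as the member with the steepest change between fractions, and its window held none of the 3. The sequences are from RefSeq, 5′ to 3′ on the strand of the gene, with the matches in capitals: Irf1 at chr11:53769764-53770013 (plus strand), Irf8 at chr8:120736108-120736357 (plus strand) and Irf7 at chr7:141266482-141266674 (minus strand, the 193 bases of its window that lie outside GENCODE exons).
Irf1: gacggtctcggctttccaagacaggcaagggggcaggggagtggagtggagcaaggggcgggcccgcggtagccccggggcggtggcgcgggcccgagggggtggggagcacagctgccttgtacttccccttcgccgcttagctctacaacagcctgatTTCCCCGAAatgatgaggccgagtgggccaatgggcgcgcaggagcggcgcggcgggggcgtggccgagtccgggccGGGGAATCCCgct
Irf8: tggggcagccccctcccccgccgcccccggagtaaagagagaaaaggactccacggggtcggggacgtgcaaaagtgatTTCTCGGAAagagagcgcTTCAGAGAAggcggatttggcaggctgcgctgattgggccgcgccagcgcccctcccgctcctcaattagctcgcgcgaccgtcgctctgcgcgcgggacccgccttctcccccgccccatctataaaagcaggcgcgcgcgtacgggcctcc
Irf7: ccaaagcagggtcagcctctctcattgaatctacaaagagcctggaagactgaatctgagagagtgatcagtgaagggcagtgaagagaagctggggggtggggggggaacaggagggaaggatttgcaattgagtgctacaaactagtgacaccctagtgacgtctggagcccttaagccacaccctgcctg
The window of Irf2 held 1 match of each kind, the ISRE site GAAAATGAAA, the GAS site TTCCGAGAA and the κB site GGGGATTTCC. Those of Irf3, Irf4, Irf5 and Irf9, and second starts of Irf1, Irf8 and Irf9, held none. The start used for Irf5 lay inside the gene as placed above, and its window (chr6:29526375-29526624) lay wholly within the gene. Bases before the outermost start of Irf5 were therefore not searched. The window of Irf7 (chr7:141266425-141266674) lay in part within its gene. A match describes letters only, and none was tested for binding.

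In WT thymocytes the family was dominated by 5 of its members. Scaled by counted transcript length, the scale on which genes can be compared, Irf3 led the MHC I low fraction with 82.5 CPM per kb, 35.4% of the family's sum. Irf9 followed with 43.0, Irf1 with 36.5, Irf7 with 31.3 and Irf2 with 26.0 CPM per kb. Irf4 stood at 11.8, Irf8 at 1.73 and Irf5 at 0.368. In the MHC I high fraction the family's sum rose from 233 to 412.5 CPM per kb and the order turned, with Irf7 first at 112, then Irf9 at 87.5, Irf1 at 80.1 and Irf3 at 76.9. Irf7 was also first in the MHC I high fraction of both mutants, at 82.3 CPM per kb in Hoil ΔCd4 and 110 in Sharpin cpdm, and Irf3 was first in their MHC I low fractions, at 88.3 and 84.5. Irf5, a factor of myeloid and B cells, was at the limit of detection, with 4 to 19 counts per sample. The plot of every sample's level shows these groups.

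**Figure D1:**
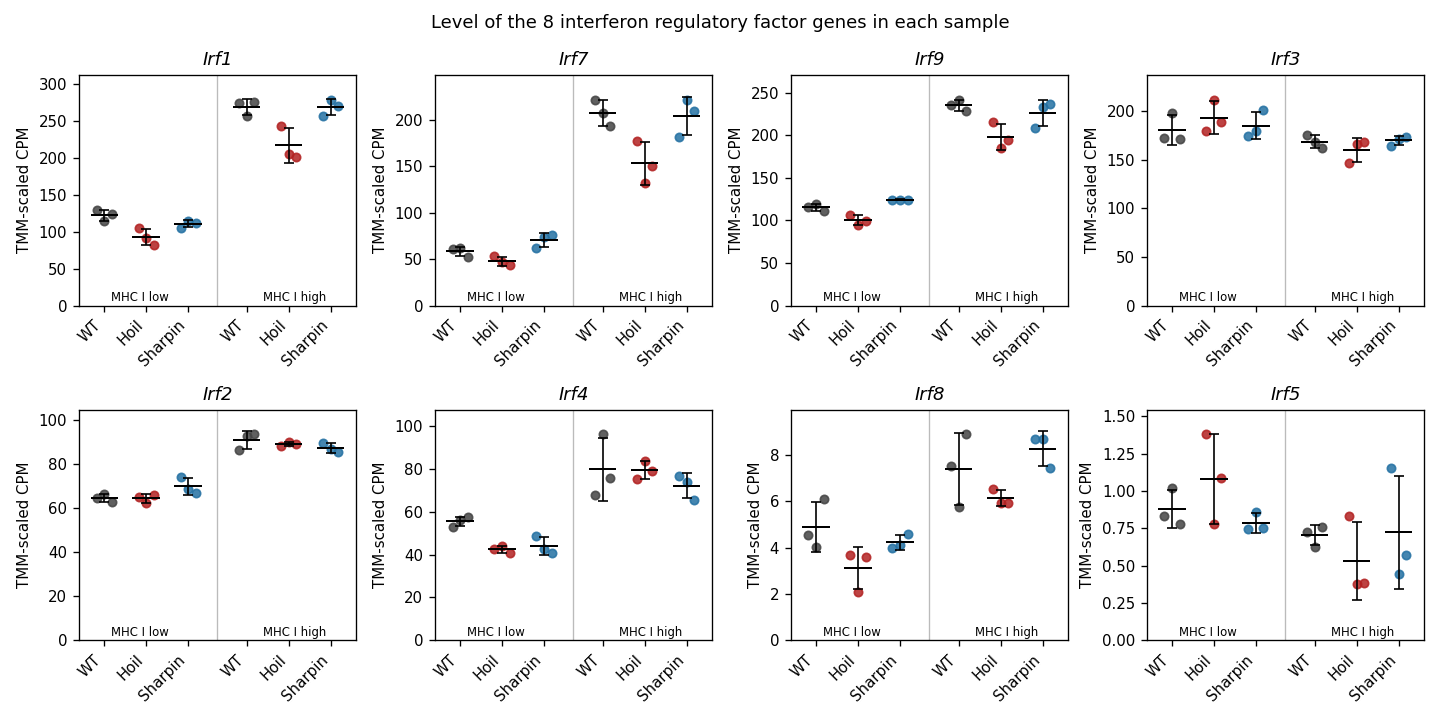
Levels of the 8 IRF genes in CPM (linear axes starting at 0), 1 panel per gene, with a point per sample and a bar and whisker for the mean ± SD of 3 mice, by genotype within the MHC I low and MHC I high fractions. Irf1, Irf7 and Irf9 were 1.83-fold to 3.5-fold higher in the MHC I high fraction, and their Hoil ΔCd4 means were the lowest of each fraction.

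Irf7, the interferon-induced regulator of type I interferon genes, differed most between the fractions. In WT mice 1 to 3 it was at 60.5, 62.0 and 52.2 CPM in MHC I low and at 222, 207 and 193 CPM in MHC I high samples, with no overlap. That was a 3.5-fold difference (log2 fold change 1.81, SE 0.08, adjusted p = 4.37e-14). All adjusted p-values are from limma with Benjamini-Hochberg adjustment over the 12798 genes. The difference was 1.66 on the log2 scale in Hoil ΔCd4 (adjusted p = 1e-11) and 1.56 in Sharpin cpdm mice (adjusted p = 1.16e-12).

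Irf1, the activator of antigen presentation genes, went from 129, 114 and 124 CPM in WT MHC I low samples to 275, 256.5 and 276 in MHC I high samples, 2.21-fold (log2 1.14, SE 0.05, adjusted p = 1.02e-17). Every high sample was above every low one. Irf9, the DNA-binding subunit of ISGF3, moved alike, from 116, 120 and 112 CPM to 235, 242 and 228 CPM (2.01-fold, log2 1.01, SE 0.05, adjusted p = 8.77e-18). Both also rose in the mutants, Irf1 by 1.21 (Hoil ΔCd4) and 1.29 (Sharpin cpdm) and Irf9 by 0.97 and 0.87 on the log2 scale.

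Irf4 rose from 52.9, 56.0 and 57.2 CPM to 67.7, 96.0 and 75.5 CPM in WT mice, and its WT fractions did not overlap. The fold change was 1.39 in WT (log2 0.47, SE 0.07, adjusted p = 6.26e-07), 1.88 in Hoil ΔCd4 (adjusted p = 1.17e-10) and 1.64 in Sharpin cpdm (adjusted p = 4.62e-10). The difference between the Hoil ΔCd4 and WT changes was 0.44 (SE 0.11) and missed the threshold (adjusted p = 0.0557 by limma). Irf2, from 64.5, 66.6 and 62.9 to 86.2, 93.0 and 93.6 CPM, rose 1.42-fold in WT (log2 0.51, SE 0.05, adjusted p = 1.25e-10). Irf8, best known from myeloid and B cells, rose 1.61-fold in WT mice (log2 0.69, SE 0.15, adjusted p = 0.00036), from 4.55, 4.03 and 6.10 to 7.52, 5.77 and 8.90 CPM. The Irf8 ranges overlapped by the low sample of mouse 3, but within each of the 9 mice the high sample was above the low one.

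Irf3 and Irf5 were higher in the MHC I high fraction of no genotype. Irf3, the latent factor that sensor kinases phosphorylate, stood at 181 ± 14.99 CPM in the low fraction of WT mice and 168 ± 6.64 CPM in the high one (log2 −0.10, adjusted p = 0.0908). Its decrease passed the test in Hoil ΔCd4 mice (−0.25, SE 0.06, adjusted p = 0.00175), while the difference between the Hoil ΔCd4 and WT changes did not (−0.15, adjusted p = 0.557). Irf5 was lower in Hoil ΔCd4 MHC I high samples by 1.07 on the log2 scale (SE 0.38, adjusted p = 0.0241). These were 11, 5 and 4 counts in high and 19, 9 and 16 in low samples, and the call was lost in 7 of 21 alternatives, among them the fits without any 1 of the 3 Hoil mice (adjusted p = 0.0634 to 0.23).

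Thus 6 of the 8 members, all but Irf3 and Irf5, were higher in the MHC I high fraction of each genotype. Many other genes were too: 27.5% of all genes tested were higher and 26.8% lower in WT mice, 23.5% and 21.7% in Hoil ΔCd4 mice, 27.2% and 27.4% in Sharpin cpdm mice, and 34.2% were called in the same direction in all 3 genotypes. The median log2 change of the members was 0.60 in WT mice, 0.94 in Hoil ΔCd4 mice and 0.79 in Sharpin cpdm mice, and that of all genes was −0.0042, −0.003 and 0.00099. The change differed from WT for no member by limma, although 1 in Hoil ΔCd4 and 3 in Sharpin cpdm mice had an unadjusted p under 0.05, and 0.398% and 3.13% of all genes were called. The 3 were Irf2 (−0.19, adjusted p = 0.128), Irf4 (0.25, adjusted p = 0.167) and Irf7 (−0.25, adjusted p = 0.258). Under every alternative that was run, the 6 members were called higher in all 3 genotypes. In bulk samples, fewer cells of a type and less RNA per cell cannot be told apart, and markers of maturation moved with these results. The summed level of 8 mature single-positive markers was 1548 to 1580 CPM in WT MHC I low and 4245 to 4420 CPM in MHC I high samples, and that of 7 pre-selection markers was 532.5 to 538 and 265 to 302.5 CPM. Their part in the rise of the members was not tested.

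**Figure D2:**
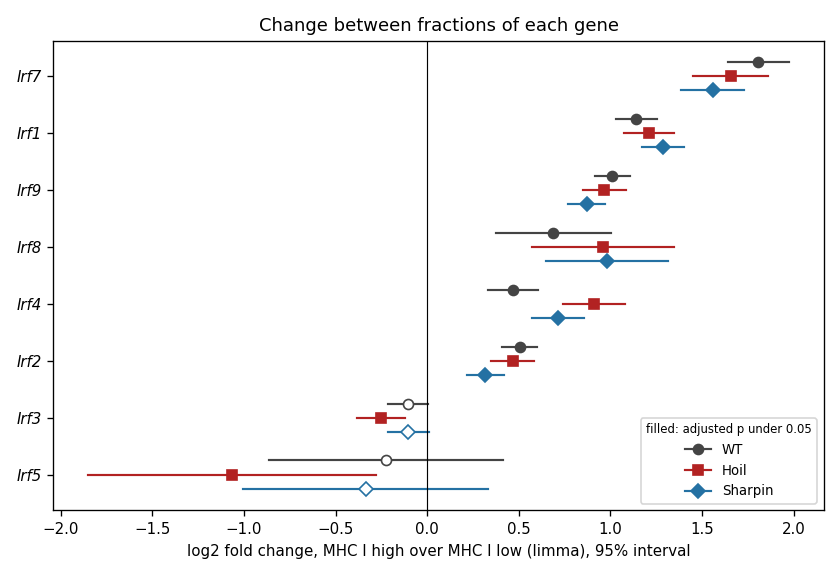
Log2 fold change of each IRF gene in MHC I high over MHC I low samples for the 3 genotypes, with 95% intervals from limma and a line at 0 (no change). Irf7 lies highest in every genotype, at 1.56 to 1.81, and Irf3 and Irf5 lie below 0.

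Irf1 was lower in both fractions of Hoil ΔCd4 mice than in WT. In MHC I low samples it was at 105.2, 91.2 and 82.5 CPM in Hoil mice 1 to 3, below each of the WT values of 114 to 129 CPM. The fall was 0.42 on the log2 scale, or 25.2% (SE 0.07, 95% interval −0.56 to −0.27, adjusted p = 0.000786). In MHC I high samples Irf1 was at 244, 206 and 202 CPM, again below every WT value, and fell by 0.35 or 21.5% (SE 0.06, adjusted p = 0.000849). It was the 1 member called in both fractions. Over 22 alternatives its adjusted p ran from 6.1e-05 to 0.0469 in MHC I low and from 3.39e-05 to 0.086 in MHC I high samples, the last being the fit without WT mouse 3.

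Irf7 and Irf9, both interferon-induced, fell in the MHC I high fraction of Hoil ΔCd4 mice. Irf7 was at 177, 132 and 150 CPM there against 193 to 222 CPM in WT, with no overlap (log2 −0.44, SE 0.10, 26.5% lower, adjusted p = 0.00724). Irf9 was at 215, 185 and 194 CPM against 228 to 242 CPM (−0.25, SE 0.06, 15.7% lower, adjusted p = 0.00669). The lowest value of both was that of mouse 2, the sample that kept Rbck1 transcripts and held Xist. Without it Irf7 was still lower but not called (−0.32, adjusted p = 0.118), as was Irf9 (−0.19, adjusted p = 0.161), whereas Irf1 kept its call. Both also lost the call without Hoil mouse 3 (adjusted p = 0.0809 and 0.0885), Irf7 without WT mouse 1 (0.0644) and Irf9 without WT mouse 3 (0.0638). Calls over all genes fell in these fits too. They went from 851 to 178 without that sample, 293 without Hoil mouse 3, 195 without WT mouse 1 and 134 without WT mouse 3. They rose to 982 without WT mouse 2 and 1219 without Hoil mouse 1.

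Irf4 fell in the MHC I low fraction, from 55.4 ± 2.25 CPM in WT to 42.4, 44.1 and 40.7 CPM, a decrease of 0.38 (SE 0.09, adjusted p = 0.0277), while in MHC I high samples it was 79.2 ± 4.16 CPM against 79.7 ± 14.6 in WT (log2 0.06, adjusted p = 0.699). In MHC I low samples Irf7 and Irf9 gave −0.29 (adjusted p = 0.263) and −0.20 (adjusted p = 0.13) and were not called. Irf4 was no longer called without WT mouse 3 (adjusted p = 0.117) or any of Hoil mice 1 to 3 (0.0672, 0.0559 and 0.216). Irf2, Irf3, Irf5 and Irf8 were called in neither fraction, with Irf8 at −0.64 (SE 0.21, adjusted p = 0.155) in MHC I low samples.

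In all, Hoil ΔCd4 thymocytes had 2 members lower in MHC I low samples, where 0.985% of all genes were called and 0.563% called lower, and 3 lower in MHC I high samples, where 6.65% were called, 2.81% called lower and 3.84% called higher. Groups did not overlap for 4 members in the low fraction (14.7% of all genes) and 3 in the high fraction (19.6%). The median member differed from WT by −0.25 and −0.30, and the median gene by −0.0014 and −0.00027 on the log2 scale. In the same samples the 7 pre-selection markers summed to 354, 548 and 535 CPM in the MHC I high samples of Hoil mice 1 to 3 against 265 to 302.5 CPM in WT, and 6 of them were called higher. The mature markers summed to 3798 to 4021 CPM against 4245 to 4420 CPM, with 1 called lower. In MHC I low samples the ranges were apart as well. The pre-selection markers summed to 572 to 674 CPM in Hoil ΔCd4 against 532.5 to 538 CPM in WT, with none called, and the mature markers to 1414 to 1497 against 1548 to 1580 CPM, with 1 called lower. Their part in the lower Irf1, Irf4, Irf7 and Irf9 was not tested.

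Markers of other cell types were measured too, including natural killer, B and myeloid cells, which the sort was set to remove. The 6 natural killer and innate T-cell markers summed to 14.5 to 27.7 CPM in Hoil ΔCd4 and 9.38 to 9.66 CPM in WT MHC I high samples, and of the 3 tested 2 were called higher and 1 lower. Gzma was at 14.6 CPM on average against 4.83, and Klrd1, the marker that was lower, at 0.812 CPM against 3.15. Their part in the results was not tested. Among 6 B-cell markers, which summed to 80.4 to 107 CPM in low and 145 to 177 CPM in high samples, nearly all counts were of Ighm. The 6 thymic epithelial markers, mostly Epcam, summed to 6.03 to 11.9 CPM over all samples. The 12 myeloid and dendritic markers summed to 23.5 to 33.6 CPM over all samples, and 9 to 10 of the 12 were under 1 CPM in every group. H2-K1, which encodes the MHC class I chain used in the sort, was at 1809 ± 124 CPM in Hoil ΔCd4 and 2003 ± 27.0 CPM in WT high samples (−0.16, adjusted p = 0.115).

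**Figure D3:**
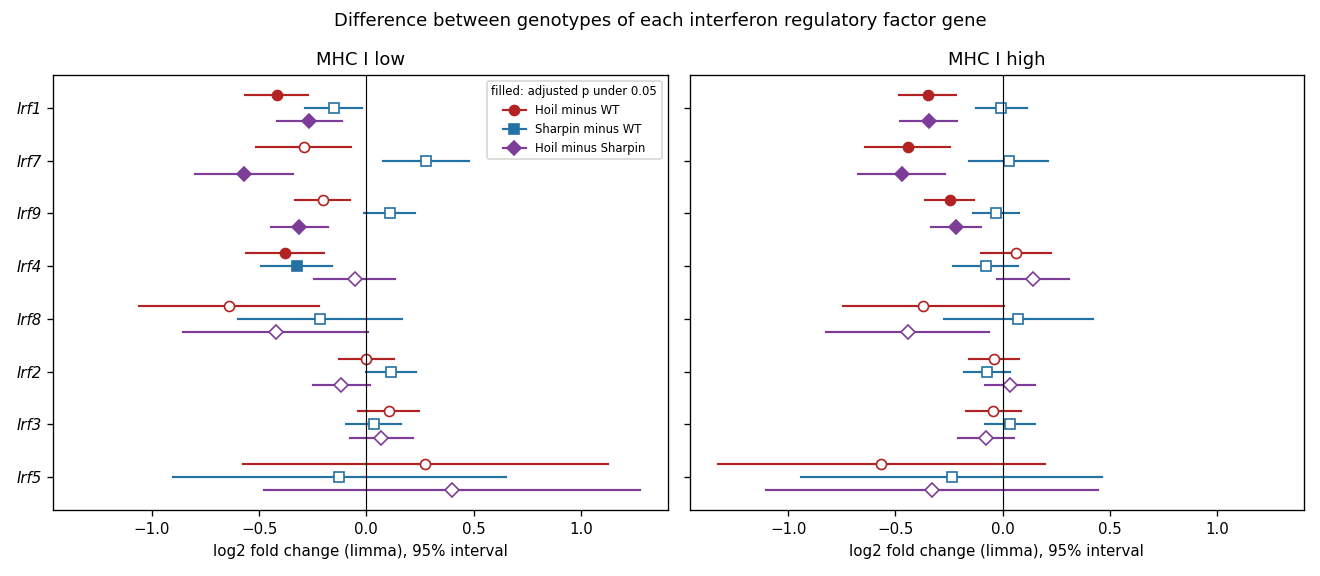
Differences in log2 CPM between genotypes for each IRF gene in the MHC I low and MHC I high fractions, with 95% intervals from limma: Hoil ΔCd4 minus WT (circles), Sharpin cpdm minus WT (squares) and Hoil ΔCd4 minus Sharpin cpdm (diamonds). Filled symbols passed the adjusted p threshold of 0.05, and Irf1 passed in all 4 comparisons with Hoil ΔCd4.

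In Sharpin cpdm mice Irf4 was the member that differed from WT. In MHC I low samples it was at 48.7, 42.5 and 40.7 CPM, below the WT values of 52.9 to 57.2 CPM, and fell by 0.32 or 20.2% (SE 0.08, adjusted p = 0.00821). It lost that call without WT mouse 3 (adjusted p = 0.0505) or Sharpin mouse 2 (0.0651). Irf7 was at 61.4, 74.1 and 75.7 CPM against 52.2 to 62.0 in WT, with overlap, which gave 0.28 (95% interval 0.08 to 0.48, adjusted p = 0.0656). It was called without Sharpin mouse 1 (adjusted p = 0.0148), Hoil mouse 1 (0.0296) or Hoil mouse 2 (0.043), or without the MHC I high sample of Hoil mouse 2 (0.0336). Irf1 gave −0.15 (adjusted p = 0.124) and Irf9 0.11 (adjusted p = 0.231), although neither overlapped WT.

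A single member was therefore called in the MHC I low fraction of Sharpin cpdm mice, where 12.2% of genes were called, 6.92% lower and 5.31% higher, and 4 did not overlap with WT, against 30.0% of genes. In the MHC I high fraction no member was called by limma, 8.62% of genes were (4.15% higher and 4.47% lower), and no member reached an unadjusted p under 0.05. No member was called there by edgeR or DESeq2 either, and no member's ranges were apart (22.3% of genes). Irf1 was at 269 ± 10.98 CPM against 269 ± 10.9 in WT (log2 −0.01, 95% interval −0.13 to 0.11), and Irf7 at 204 ± 20.5 against 207 ± 14.1 CPM (0.03, 95% interval −0.15 to 0.21). The median member differed from WT by −0.05 in the low and −0.02 in the high fraction, and the median gene by 0.0084 and 0.003. Of the 37 genes tested within 1 Mb of Irf7, 3 were higher in Sharpin cpdm MHC I low samples (8.11%), and of the 6 near Irf4 none was called in either fraction. The pre-selection markers summed to 445.5 to 455 CPM in Sharpin cpdm low samples against 532.5 to 538 CPM in WT, and the mature markers to 1622 to 1674 against 1548 to 1580 CPM. The part of these markers and of the strain background in the Irf4 and Irf7 values was not tested.

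Compared directly, the mutants differed in 3 members, each lower in Hoil ΔCd4. Both comparisons with WT share the WT samples, and this one shares the mutant samples with them. Irf7 gave −0.57 in MHC I low (SE 0.11, 32.7% lower, adjusted p = 0.00213) and −0.47 in MHC I high samples (SE 0.10, adjusted p = 0.0047). Irf9 gave −0.31 (SE 0.06, adjusted p = 0.002) and −0.22 (SE 0.06, adjusted p = 0.0189), and Irf1 −0.27 (SE 0.07, adjusted p = 0.0203) and −0.34 (SE 0.07, adjusted p = 0.000979).

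The ranges were apart for Irf7, at 43.4 to 52.9 CPM against 61.4 to 75.7 in low and 132 to 177 against 181 to 221 in high samples, and Irf9 overlapped in high samples. Irf1 was at 82.5 to 105.2 against 105.3 to 114 CPM in low and 202 to 244 against 258 to 279 CPM in high samples, so its low ranges were all but touching. Of all genes, 9.48% were called in MHC I low samples, 4.36% lower and 5.12% higher in Hoil ΔCd4, and 6.73% in MHC I high samples, 3.02% lower and 3.71% higher. Across the family the ranges were apart for 5 members in low (27.8% of genes) and 3 in high samples (22.9%). Irf4 was not called in either fraction (−0.06, adjusted p = 0.766, and 0.14, adjusted p = 0.325). Without the MHC I high sample of Hoil mouse 2, Irf7 (−0.35, adjusted p = 0.065) and Irf9 (−0.16, adjusted p = 0.24) were not called in high samples. The same calls were lost there without Hoil mouse 3 (Irf7 0.0536, Irf9 0.153) or Sharpin mouse 2 (0.0621 and 0.169), and that of Irf9 without Sharpin mouse 3 (0.15) as well. In low samples the Irf1 call was lost without Hoil mouse 2 (0.0667), Hoil mouse 3 (0.198), Sharpin mouse 2 (0.115) or Sharpin mouse 3 (0.0737). The median member gave −0.19 in low and −0.27 in high samples, and the median gene −0.011 and 0.0011. The pre-selection markers summed to 572 to 674 CPM in Hoil ΔCd4 against 445.5 to 455 CPM in Sharpin cpdm low samples (3 of 7 called higher), and to 354 to 548 against 306 to 392 CPM in high samples (1 higher). The mature markers moved in the direction of Irf1, Irf7 and Irf9, at 1414 to 1497 against 1622 to 1674 CPM in low and 3798 to 4021 against 4435 to 4522 CPM in high samples, and in each fraction 4 of 8 were called lower and 1 higher. Their part was not tested.

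Irf7 and Irf9 tracked each other over the samples. Among genes with a mean of at least 5 CPM, the gene most like Irf7 over the 18 samples was Irf9 (Pearson's r of log2 CPM 0.995). As deviations from the 6 group means, which leave out the fractions and genotypes, r was 0.77. By log2 CPM, which carries the split between the fractions, the next genes most like Irf7 were Ifi213 and Xaf1, and Dhx58 was among those most like Irf9. Those most like Irf1 were Gbp9, Tmem71 and Zbp1, those most like Irf4 were Hsd11b1, Ly6e and Tmem123, and Irf2 was most like Stt3b. By the deviations the order was another one, with Mx2 (r 0.97), Xaf1 and Dhx58 first for Irf7, Dhx58 (0.91) for Irf9, Fbxl4 (0.94), Stx17 and Zc3h6 for Irf1, Dnaja2 (0.90) for Irf4 and Smim13 (0.88) for Irf2. The levels share library, sort and mouse, so these are descriptions.

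**Figure D4:**
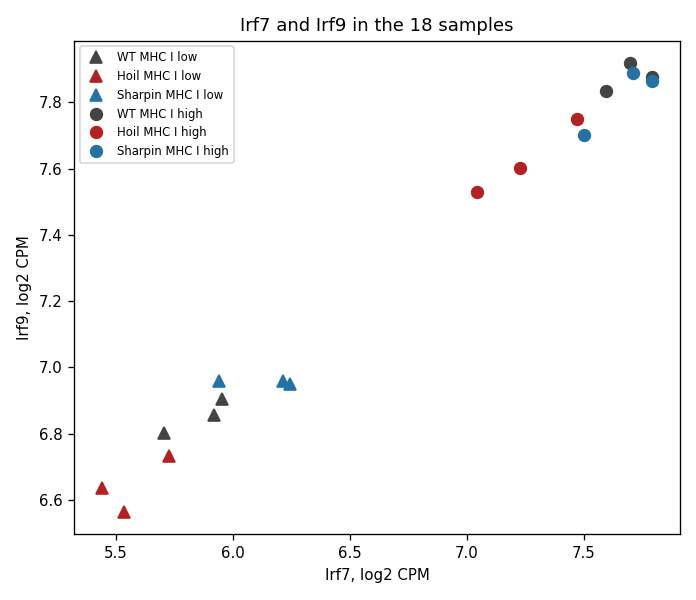
Log2 CPM of Irf9 against that of Irf7 in the 18 samples, coloured by genotype, with triangles for MHC I low and circles for MHC I high. The samples form 2 clusters by fraction, and the lowest Irf7 level in each is that of a Hoil ΔCd4 sample, although the genotypes overlap for Irf7 in the low and for Irf9 in the high cluster.

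The interferon pathway around the family was read from lists, beside these shares of all genes called. Between WT fractions 27.5% were higher and 26.8% lower. Against WT, 0.422% were higher and 0.563% lower in Hoil ΔCd4 low samples, and 3.84% and 2.81% in high samples. In Sharpin cpdm mice 5.31% were higher and 6.92% lower in low samples, and 4.15% and 4.47% in high samples. For Hoil ΔCd4 against Sharpin cpdm these were 5.12% and 4.36% in low, and 3.71% and 3.02% in high samples. Ligands were close to absent in these cells: Ifng, the type II interferon, reached at most 4 counts and was at 0 in 12 of 18 samples, and the type I and type III genes Ifnb1, Ifna1, Ifna2, Ifna4, Ifne, Ifnl2 and Ifnl3 had 0 counts in all 18. Ifng was thus detected at a trace in 6 samples. For the 7 type I and type III genes, with 3 counts taken as the floor of a library, the counts say only that these transcripts were not detectable at this depth.

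Of the 9 receptor and JAK-STAT genes, 7 were higher in the MHC I high fraction of each genotype, with medians of 0.42 in WT mice, 0.38 in Hoil ΔCd4 mice and 0.44 in Sharpin cpdm mice. In Hoil ΔCd4 MHC I high samples the type I receptor chain Ifnar1 was lower (−0.25, adjusted p = 0.00515) and the type II receptor chain Ifngr1 higher (0.30, adjusted p = 0.00656). The list's median was −0.14 there and −0.08 in MHC I low samples, where none of the 9 was called. The Ifnar1 call was lost without Hoil mouse 2 or 3 or WT mouse 1 or 3, among other alternatives (adjusted p up to 0.245). In Sharpin cpdm mice Ifngr2, the other type II chain, was lower in both fractions (−0.31 and −0.34, adjusted p = 0.000947 and 0.000104).

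Among 15 tested sensors and kinases that activate IRF3, IRF5 and IRF7, 11 rose and 2 fell between the fractions in WT (median 0.31), with Tlr7, an endosomal RNA sensor, at 1.59 and Ddx58, the cytosolic RNA sensor RIG-I, at 1.15. Tlr7 was lower than in WT in Hoil ΔCd4 MHC I high samples (−0.44, adjusted p = 0.0062) and in Sharpin cpdm samples of both fractions (−0.54, adjusted p = 0.000556, and −0.44, adjusted p = 0.00208). Ticam1, Sting1 and Ddx58 were lower in Hoil ΔCd4 than in Sharpin cpdm MHC I low samples, and none of the 15 was called between Hoil ΔCd4 and WT there (median −0.08).

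Of 7 tested partners and co-repressors of IRF proteins, 2 rose and 4 fell between the WT fractions. Against WT, 1 was called in each fraction of Hoil ΔCd4 mice and 2 in each fraction of Sharpin cpdm mice. The medians against WT lay between −0.15 and 0.04. Batf, the AP-1 factor that binds with IRF4, was lower in Sharpin cpdm MHC I low samples (−0.62, adjusted p = 0.00059), as was the co-repressor Irf2bp2 (−0.32, adjusted p = 0.000472). Of 7 tested, Bcl6, a repressor, fell in the MHC I high fraction (−1.68 in WT) and was higher in Hoil ΔCd4 MHC I low samples (0.31, adjusted p = 0.0301).

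LUBAC acts upstream of NF-κB, and 3 of its 5 subunit genes fell in Hoil ΔCd4 MHC I low samples (median of the 5 −0.32): Relb (−0.51, adjusted p = 0.000158), Nfkb2 (−0.39, adjusted p = 0.000394) and Nfkb1 (−0.30, adjusted p = 0.0136). In Sharpin cpdm MHC I low samples 4 fell (median −0.43), with Nfkb2 at −0.55 and Rel at −0.57, and Rela rose by 0.22. In MHC I high samples Relb fell in Hoil ΔCd4 (−0.36, adjusted p = 0.00128), and Nfkb2 (−0.30, adjusted p = 0.000219), Relb (−0.23, adjusted p = 0.02) and Nfkb1 (−0.17, adjusted p = 0.0453) fell in Sharpin cpdm mice (medians −0.14 and −0.19). The Relb call in Hoil ΔCd4 was lost without WT mouse 3 or Hoil mouse 2 (adjusted p up to 0.0725). In Sharpin cpdm high samples the count ran from 1 to 4 over 22 alternatives, 9 of which ended the Relb call (among them leaving out any WT mouse, Sharpin mouse 2 or Sharpin mouse 3, adjusted p up to 0.308) and 8 the Nfkb1 call (WT mouse 2 or 3 or Sharpin mouse 2 or 3, up to 0.185). Between the mutants no subunit was called in MHC I low samples, and in MHC I high samples Nfkb2 was higher in Hoil ΔCd4 (0.19, adjusted p = 0.0429), a call that 12 of 22 alternatives ended, among them leaving out any Hoil mouse (adjusted p up to 0.232 over the 22).

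Early genes of the TCR response mostly fell in the MHC I high fraction, where Irf4 rose. Of 8, 6 fell and 1 rose in each genotype, with medians of −1.01 in WT mice, −1.03 in Hoil ΔCd4 mice and −1.04 in Sharpin cpdm mice, and Egr2 at −1.45, Nr4a1 at −1.03 and Cd69 at −1.76 in WT. CD69 protein was used in the sort. In Sharpin cpdm MHC I low samples, where Irf4 fell, 4 fell and 1 rose (median −0.10), with Nr4a3 at −0.44 (adjusted p = 0.0027). In the low fraction of Hoil ΔCd4 mice, where Irf4 also fell, 1 fell (median −0.04), Myc at −0.43 (adjusted p = 0.0136).

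Known target genes of the family were mostly higher in the MHC I high fraction. All but Ifitm3 of 24 ISRE-type interferon-stimulated genes were higher in MHC I high samples of each genotype, with a median log2 change of 1.66 in WT mice, 1.66 in Hoil ΔCd4 mice and 1.32 in Sharpin cpdm mice. Of 16 IRF1-type targets in antigen presentation and immunity, 14 rose and 2 fell in WT (median 0.78), with B2m, the light chain of MHC class I, at 1.77, Nlrc5, an activator of MHC class I genes, at 1.61, and Psmb9, an immunoproteasome subunit, at 1.39. MHC class I protein was used in the sort, so the rise of its presentation genes is not independent of how the fractions were defined.

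Between genotypes the ISRE-type genes had medians of opposite sign in the low fraction of the mutants. Against WT, Hoil ΔCd4 gave a list median of −0.20 in the low and −0.25 in the high fraction, with 2 and 3 genes lower and none higher. Rtp4, an interferon-induced chaperone, was lower in both (−0.56, adjusted p = 0.012, and −0.42, adjusted p = 0.016). The median was 0.42 in the low fraction of Sharpin cpdm mice, and 3 were higher: Oas1a (1.46, adjusted p = 0.00138), Oasl1 (0.89, adjusted p = 0.00463) and Bst2, which tethers virions to the cell surface (0.61, adjusted p = 0.00761). In Sharpin cpdm MHC I high samples the median was 0.01 with 2 lower. The mutants differed by a median of −0.72 in low samples, with 8 genes lower in Hoil ΔCd4, and of −0.34 in high samples, with 3 lower.

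These counts depended on single mice, as alternatives chosen after seeing the data show. Over all 22 the lower ISRE-type genes in Hoil ΔCd4 against WT ranged from 0 to 7 in low and 0 to 9 in high samples, and without the MHC I high sample of Hoil mouse 2 none was called in high samples. None was called without WT mouse 1, Hoil mouse 2 or Hoil mouse 3 in either fraction, or without WT mouse 3 in high samples, and the 7 and 9 came without Hoil mouse 1. Calls over all genes varied in these fits as well. They ran from 62 to 222 in low and from 134 to 1219 in high samples, against 126 and 851 with all samples. The 222 and 1219 also came without Hoil mouse 1. The list's median against WT ran from −0.41 to −0.13 in low and from −0.40 to −0.09 in high samples. In Sharpin cpdm MHC I low samples 2 to 6 ISRE-type genes were higher, and against Sharpin cpdm 4 (without Sharpin mouse 2) to 15 (without Hoil mouse 1) were lower in Hoil ΔCd4 MHC I low samples. In MHC I high samples the 3 lower in Hoil ΔCd4 than in Sharpin cpdm mice became 0 without Hoil mouse 2, its MHC I high sample alone or Sharpin mouse 2, and 9 without Hoil mouse 1 (median −0.47 to −0.13 over the 22). The Rtp4 calls against WT were lost without WT mouse 1, Hoil mouse 2 or Hoil mouse 3 (adjusted p up to 0.12 in low and 0.238 in high samples), and the high-fraction call also without WT mouse 3. Rtp4 in Hoil ΔCd4 against Sharpin cpdm low samples kept its call (−0.82, adjusted p = 7.1e-05).

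IRF1-type targets in Hoil ΔCd4 included Cd274, which encodes the inhibitory ligand PD-L1, lower in both fractions (−0.47, adjusted p = 0.0013, and −0.41, adjusted p = 0.000886), with list medians of −0.19 in each. In MHC I high samples 4 of the 16 were lower and 1, the JAK inhibitor gene Socs1, higher (0.46, adjusted p = 0.000945). In the low fraction of Sharpin cpdm mice 2 were higher, Tap2 (0.24, adjusted p = 0.000987) and Tap1 (0.21), and 2 lower, Cd274 (−0.35, adjusted p = 0.00267) and Gbp3 (−0.60, adjusted p = 0.00151). Between the mutants 6 were lower in Hoil ΔCd4 in MHC I low samples, with the peptide transporter gene Tap1 at −0.42 (adjusted p = 0.000101), and 4 in MHC I high samples. Without the MHC I high sample of Hoil mouse 2, the 4 lower targets in Hoil ΔCd4 MHC I high samples went to 0 against WT, Cd274 included, and to 0 against Sharpin cpdm mice.

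Several further calls of list genes ended on leaving out a mouse. In MHC I low samples of Hoil ΔCd4 these were Nfkb1 (without WT mouse 3, Hoil mouse 2 or Hoil mouse 3, adjusted p up to 0.0969), Myc (WT mouse 3 or Hoil mouse 3, 0.0595) and Bcl6 (any WT mouse, Hoil mouse 2 or Hoil mouse 3, 0.163). In MHC I high samples they were Tlr7 (WT mouse 3 or Hoil mouse 2, 0.153), Ifngr1 (WT mouse 1, WT mouse 3 or Hoil mouse 3, 0.17), Socs1 (WT mouse 1 or 3, 0.101) and Cd274 (Hoil mouse 2, 0.0774). Leaving out the MHC I high sample of Hoil mouse 2 alone ended the high-fraction calls against WT of Ifnar1 (−0.19, adjusted p = 0.139), Tlr7 (−0.35, 0.15), Relb (−0.29, 0.0617), Rtp4 (−0.30, 0.233) and Cd274 (−0.29, 0.0774) and that of Nfkb2 against Sharpin cpdm (0.20, 0.135), while Ifngr1 (0.0342) and Socs1 (0.017) kept theirs. In Sharpin cpdm MHC I low samples the calls that ended were those of Bst2 (WT mouse 1 or Sharpin mouse 3, 0.0823) and Oasl1 (Sharpin mouse 2, 0.0727). Relb and Nfkb2 in both mutants, Cd274 in both, and Batf, Irf2bp2, Ifngr2, Tlr7, Rel, Nr4a3, Oas1a, Tap2 and Gbp3 in Sharpin cpdm mice kept their calls in MHC I low samples under all 22 alternatives.

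**Figure D5:**
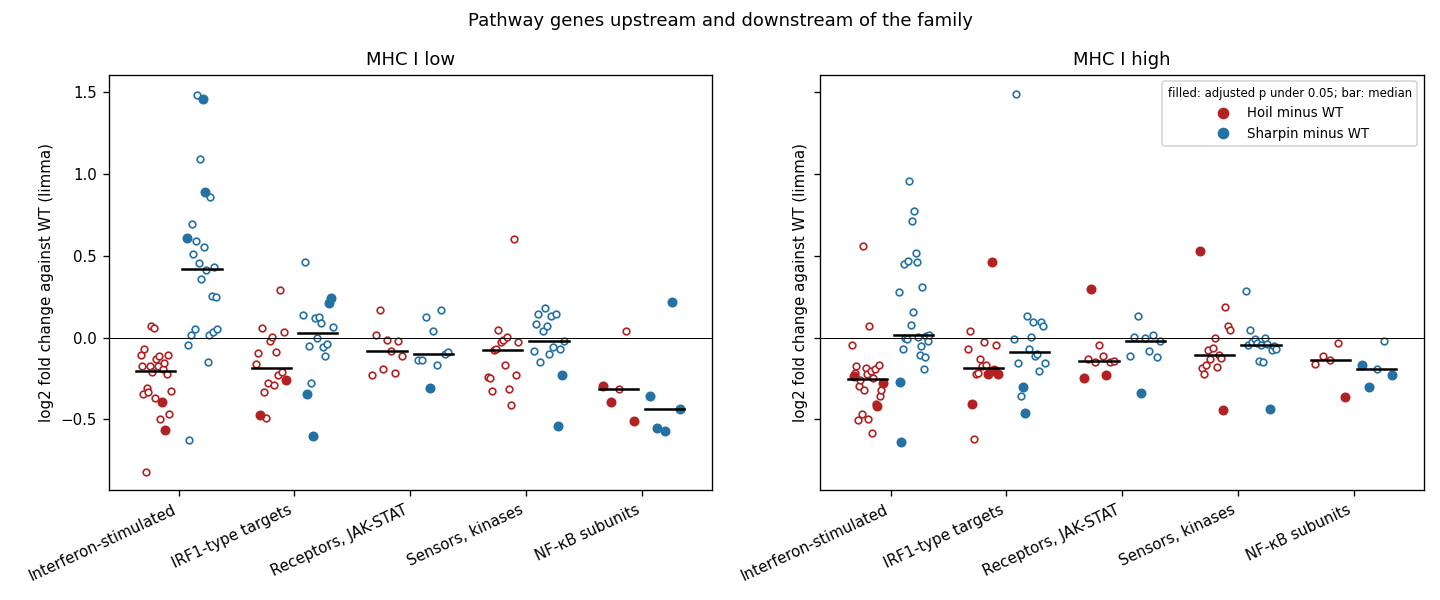
Log2 fold changes against WT of each gene of 5 lists around the IRF family (points) with the list's median (bar), for Hoil ΔCd4 and Sharpin cpdm in both fractions, and a line at 0 (no difference). Medians of the ISRE-type genes lie at −0.20 and −0.25 in Hoil ΔCd4 and at 0.42 and 0.01 in Sharpin cpdm mice.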

How the data were processed

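RNA-seq was made by the authors from sorted thymocytes of 9 mice with a TruSeq RNA kit and single-end reads of 75 bases, aligned with subread to mm10 and assigned to genes by featureCounts with its inbuilt RefSeq annotation. Versions, strand and multi-mapping settings are not given in the sources used here, so reads of overlapping genes (Irf5 with Tnpo3, Irf2 with predicted genes) may have been shared. The deposited files hold raw gene counts per sample, whole numbers that were not normalized. Gene symbols came from RefSeq (25275 of 27179 identifiers matched, and the others held 0.655% of counts). Members and gene lists were chosen with earlier results of these data known.

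Genes of the Y chromosome, Xist, predicted genes and genes without a symbol were removed, and those reaching 0.5 CPM in 3 or more samples were tested. Counts were TMM-normalized (factors 0.987 to 1.02) and turned into log2 CPM with a prior count of 1. They were fitted in limma 3.58.1 (R 4.3.3) with 6 group means, sample quality weights (0.628 to 2.42), mouse as a random block (correlation 0.224) and robust empirical Bayes moderation with a trend, as in the study's methods. Adjusted p-values are Benjamini-Hochberg values over all 12798 genes, called below 0.05. Both fractions of a mouse are paired by the labels, and the deviations of its 2 samples from their groups correlated at 0.0703 to 0.256. Replicate pairs differed by 5.00 to 15.7 times counting noise (chi-square per degree of freedom), so no 2 samples were alike within sampling noise. Irf5 and Irf8 had the fewest counts of the members.

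Alternatives were edgeR 4.0.16 quasi-likelihood, DESeq2 1.42.0, other scaling, filters, priors, weights and blocks, Xist as a covariate, and leaving out each mouse or the MHC I high sample of Hoil mouse 2. The fits were tested on simulated data. Named genes were the 8 members, for each list at most 3 called genes with the smallest p in a comparison, the 3 genes most alike to each member, genes within 1 Mb, and label checks. Genes named beyond this (Gzma, a few list members) were chosen after their values were seen. Some genes are not reported here.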

Additional observations from a re-analysis of the deposited data

Results flagged for a closer look

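For 3 genes around the family the difference between the fractions was not the same in Sharpin cpdm and WT mice by the test of that difference (limma, Benjamini-Hochberg adjustment). The difference for Irf2bp1, a co-repressor that binds IRF2, was −0.27 on the log2 scale (SE 0.08, adjusted p = 0.0472), with changes of −0.37 in WT and −0.64 in Sharpin cpdm mice. For Rel, an NF-κB subunit, it was 0.38 (SE 0.10, adjusted p = 0.0274), with −0.41 in WT and −0.03 in Sharpin cpdm mice. For Nfkb2, another subunit, it was 0.25 (SE 0.07, adjusted p = 0.0408), with −0.33 in WT and −0.08 in Sharpin cpdm mice. Of 22 alternatives, 13 ended the call of Irf2bp1, 7 that of Rel and 15 that of Nfkb2. No IRF gene differed in this way, and 3.13% of all genes tested did.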

How the results depend on the processing

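Of 88 member results, 32 were called, 23 of which kept their call under every one of the alternatives, and none reversed. Most of those kept were calls between fractions, where only that of Irf5 in Hoil ΔCd4 mice was lost. Between genotypes most calls were lost in some alternative. Those kept were Irf1 in Hoil ΔCd4 against WT low samples and against Sharpin cpdm high samples. Irf7 and Irf9 in Hoil ΔCd4 against Sharpin cpdm low samples were kept as well. Against WT in MHC I low samples the 2 Hoil ΔCd4 calls became 1 under edgeR and without a filter on low counts (Irf4, adjusted p = 0.0602 and 0.0836), and 1 to 2 on leaving out single mice. The 3 calls in MHC I high samples became 1 without the MHC I high sample of Hoil mouse 2 and 1 to 3 on leaving out single mice. Over all genes the calls of this comparison went from 851 to 178 without that sample. They ran from 134 to 1219 on leaving out single mice. The single Sharpin cpdm call in MHC I low samples became 2, with Irf7, when only the groups compared were fitted and without the MHC I high sample of Hoil mouse 2, and 0 to 2 on leaving out single mice. The 3 low-fraction calls between the mutants went to 2 to 3 and the 3 high-fraction calls to 1 to 3 on leaving out single mice, and the latter to 1 without the MHC I high sample of Hoil mouse 2 and to 2 under edgeR, DESeq2 or no quality weights (Irf9, adjusted p = 0.0794, 0.07 and 0.077). Over all genes the high-fraction calls between the mutants went from 861 to 313 without that sample. They ran from 324 to 958 on leaving out single mice.

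Mouse numbers are shared between genotypes only as numbers. With that number as a replicate block, the calls were 2 for Hoil ΔCd4 against WT in MHC I high samples (Irf7, adjusted p = 0.0551) and 2 between the mutants in MHC I low samples (Irf1, adjusted p = 0.063). With each mouse as a fixed replicate block, the fraction change differed between Hoil ΔCd4 and WT in 1 member (Irf4, adjusted p = 0.0317) and between Sharpin cpdm and WT in 1 (Irf7, −0.31, adjusted p = 0.0104), and Irf3 made 7 Sharpin cpdm fraction calls (adjusted p = 0.0454). The Irf4 difference, in 1 member, also passed with library size only (0.0425) and at 10 counts in every sample (0.0329), and for 0 to 1 members on leaving out single mice (Irf4 without WT mouse 2, 0.0129). The 8 Hoil ΔCd4 fraction calls became 7 to 8. Leaving the mouse block out changed no count of members. At 10 counts in every sample Irf5 had no value. The causes were not tested. With Xist as a covariate every call against WT was kept (Irf7 in Hoil ΔCd4 MHC I high samples, adjusted p = 0.0313). Low counts limit Irf5 and Irf8, and 3 mice a group leave wide intervals.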

Other observations

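Irf9 starts 310 bases after the end of Rnf31, which encodes HOIP, the third component of LUBAC. Rnf31 was not called between Hoil ΔCd4 and WT. It gave −0.17 in MHC I high samples (adjusted p = 0.0865 by limma), where Irf9 gave −0.25. In MHC I low samples it gave −0.04 (adjusted p = 0.887), where Irf9 gave −0.20. Between the WT fractions Rnf31 rose by 0.22 and Irf9 by 1.01. A link between the 2 genes was not tested.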
